A study of Arabidopsis thaliana with 2 samples.

Results

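A row of 6 purine permease genes lies head to tail on chromosome 4 of Arabidopsis thaliana. In seedlings of the crwn1 crwn2 double mutant, named for genes of the plant nuclear lamina, 4 of them had at least 2-fold fewer reads. The 6 loci were taken from a list: PUP6 (AT4G18190), PUP8 (AT4G18195), PUP7 (AT4G18197), AT4G18205, PUP10 (AT4G18210) and AT4G18220. The 2 deposited tables together list 21808 loci, 5 of the 6 members among them, since PUP6 was in neither. The cluster was chosen with its values in this comparison known, so its own differences are given as a description. RNA came from 10-day seedlings, with a single library from the wild type (WT) and a single library from crwn1 crwn2 plants. The labels name neither the mutant alleles nor the WT accession. CRWN proteins are parts of that lamina, a layer under the nuclear envelope. Depth was 2.09 M uniquely placed reads for WT and 2.20 M for the mutant. As a check of the labels, CRWN1 had 1021 reads in WT and 57 in the mutant library, and CRWN2 had 148 and 9. With 1 library per genotype nothing checks the differences against variation between plants, so none was tested, and all intervals cover counting error only. Genotype cannot be told apart from harvest or library preparation.

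Purine permeases are membrane proteins of the drug and metabolite transporter superfamily. Some members move adenine, cytokinins and related compounds into plant cells with protons. Cytokinins are adenine-derived hormones, and PUP14 imports them from the cell wall space and so limits how much reaches receptors at the cell surface. PUP1 and PUP2 were the first members shown to carry adenine and cytokinins, by expression in yeast. The substrates of most other members are less well described, and the labels of the deposited tables call AT4G18205 a nucleotide-sugar transporter family protein and AT4G18220 a drug/metabolite transporter superfamily protein.

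The cluster spans 12553 bp, from 10067810 to 10080362 of chromosome 4 on the TAIR10.1 annotation, and all 6 genes lie on the forward strand. Gaps between successive members measure 69, 365, 153, 156 and 376 bp. Every member has 2 coding exons, a very short first and a long second one. The first holds 31 bases in 5 members and 52 bases in PUP6, and the second 1103 to 1154 bases. The encoded proteins have 377 to 394 residues. The first coding exons are shown because they set the copies side by side, with the start codon in capitals, read from the RefSeq genome of build TAIR10.1:
PUP6, chr4:10067939-10067990, forward strand: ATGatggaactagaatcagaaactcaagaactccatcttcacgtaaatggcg
PUP8, chr4:10069718-10069748, forward strand: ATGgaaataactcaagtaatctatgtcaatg
PUP7, chr4:10071775-10071805, forward strand: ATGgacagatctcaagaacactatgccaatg
AT4G18205, chr4:10073850-10073880, forward strand: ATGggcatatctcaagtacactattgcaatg
PUP10, chr4:10076175-10076205, forward strand: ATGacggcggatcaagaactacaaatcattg
AT4G18220, chr4:10078768-10078798, forward strand: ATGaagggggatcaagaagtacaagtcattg
The first coding exons of PUP8, PUP7 and AT4G18205 all end in caatg, those of PUP10 and AT4G18220 both end in tcattg, and PUP6 stands apart in length.

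The copies fall into a trio, a pair and a single gene by sequence. Over their coding sequences PUP7 and AT4G18205 were 92.2% identical, and their proteins shared 89.1% of aligned residues. PUP8 shared 76.4% of residues with PUP7 and 76.7% with AT4G18205. PUP10 and AT4G18220 formed the pair, with 90.4% identity in coding sequence and 85.4% in protein. PUP6 shared between 47.2% and 53.8% with the others. Of the 17 family members elsewhere in the genome, 16 were aligned with the 6 cluster proteins, and ATPUP20, a pseudogene, was not. These 96 comparisons had a median protein identity of 33.2% and a highest value of 48.5%. Those with PUP9 rest on 43 to 45 aligned residues, and without them the median over 90 comparisons was 33.5%.

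**Figure D1:**
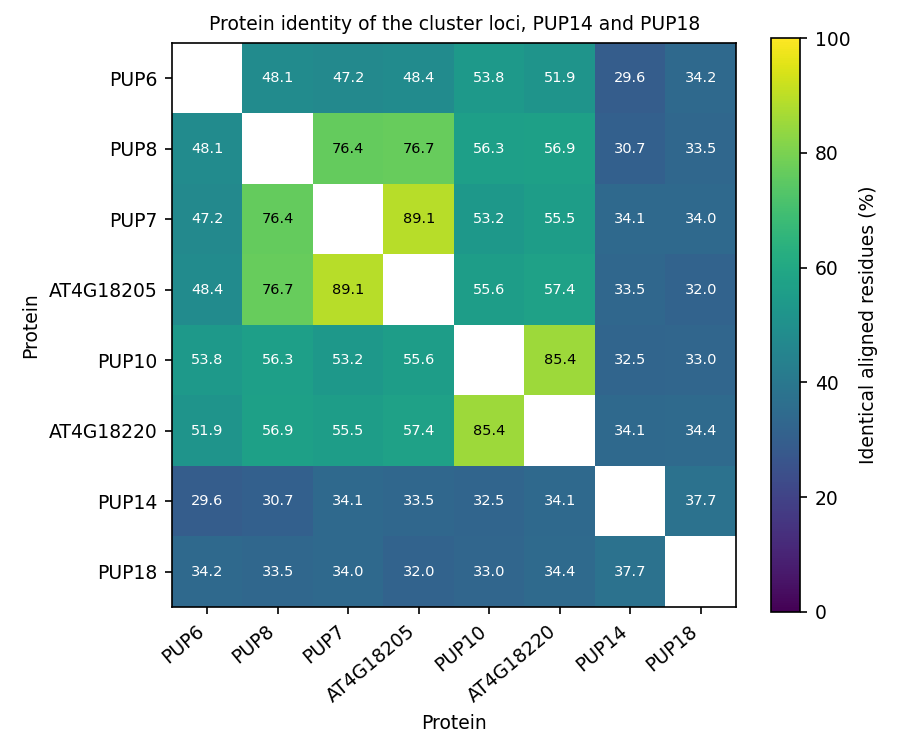
Percent identical residues in pairwise alignments of the 6 cluster proteins (in chromosomal order), PUP14 and PUP18; each cell is 1 pair. The trio of PUP8, PUP7 and AT4G18205 reaches 89.1%, the pair of PUP10 and AT4G18220 85.4%, and no cluster protein exceeds 34.4% with PUP14 or PUP18.

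Close copies matter for counts of uniquely placed reads. A model with 1 read had a median of 49 covered bases in either library, so each coding sequence was cut into all windows of 49 bases. Of the 1125 windows of PUP7 and the 1086 of AT4G18205, 123 of each (10.93% and 11.33%) also occurred elsewhere in the genome letter for letter, and reads from these cannot be placed uniquely. Both genes can be undercounted in both libraries. The other 4 members had no such window. Allowing 2 mismatches, 32.8% of PUP7 and 35.91% of AT4G18205 windows matched another member, 10.29% for PUP8, 8.89% for PUP10 and for AT4G18220, and 0 for PUP6.

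Levels differed widely within the cluster. Levels are RPKM, reads scaled to transcript model length and library total, and each interval is the exact 95% Poisson interval of the reads. AT4G18205 was the most abundant member, with 251 reads and an RPKM of 83.7 (73.7 to 94.7) in WT and 98 reads and 31.1 (25.2 to 37.8) in the mutant library. PUP7, its closest copy, had 192 reads and an RPKM of 60.3 (52.0 to 69.4) in WT, and 66 reads and 19.7 (15.2 to 25.1) in the mutant library. For both genes the mutant interval lay wholly below the WT interval.

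AT4G18220 followed, with 60 reads and an RPKM of 27.7 (21.1 to 35.6) in WT and 30 reads and 13.2 (8.87 to 18.8) in the mutant library. PUP10 had 66 reads and an RPKM of 20.7 (16.0 to 26.3) in WT, and 16 reads and 4.77 (2.73 to 7.75) in the mutant library. This pair of close copies could not be ordered by RPKM in WT, where their intervals overlap. In the mutant library the RPKM intervals do not overlap and AT4G18220 was the higher. That order depends on model length, 1035 bases for AT4G18220 and 1522 for PUP10. As shares of cluster reads, the mutant intervals of the pair overlap (PUP10 4.29% to 11.8%, AT4G18220 9.57% to 19.2%). PUP8 was weak, with 10 reads and an RPKM of 3.54 (1.70 to 6.50) in WT and 6 reads and 2.02 (0.740 to 4.39) in the mutant library. Its intervals in the 2 libraries overlap. PUP6 was listed in neither library. The floor set for an unlisted locus was 3 reads, which is 1.43 CPM (reads scaled to the library total) in WT and 1.36 in the mutant library. This floor is a set value and not a limit of the Poisson interval used for the other loci. The order of the 5 listed genes by RPKM was the same in both libraries, but in the mutant library the intervals of PUP7 and AT4G18220 overlap, as do those of PUP10 and PUP8.

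**Figure D2:**
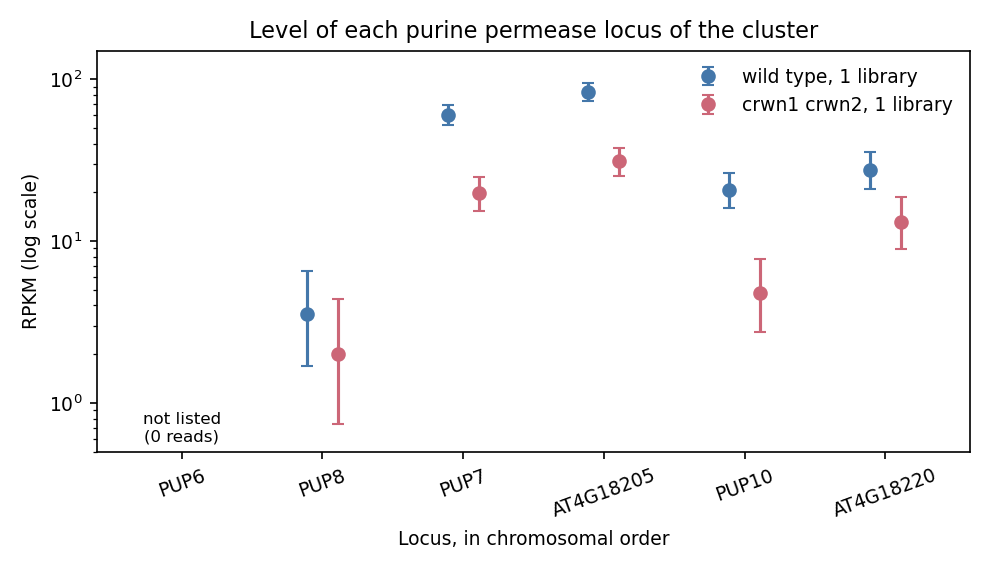
RPKM on a log scale of each cluster locus in chromosomal order, WT in blue and crwn1 crwn2 in red, 1 library each; bars are exact 95% Poisson intervals of the reads. PUP7, AT4G18205, PUP10 and AT4G18220 have mutant intervals below their WT intervals, those of PUP8 overlap, and PUP6 was not listed.

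Coverage of the transcript models moved with the reads. Reads covered 92.53% of AT4G18205 in WT and 86.1% in the mutant library, and 88.63% and 74.42% of PUP7. The share covered was 81.41% and 40.74% for PUP10, 82.22% and 73.43% for AT4G18220, and 31.26% and 21.26% for PUP8. Reads of the 4 stronger genes were thus spread along the models in WT.

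Between the libraries, 4 of the 5 measured members were called lower in crwn1 crwn2, none was called higher and PUP8 was not called. A locus counted as measured with an RPKM of at least 1 and at least 10 reads in 1 library. It was called when RPKM + 1 differed at least 2-fold and the exact 95% interval of the read ratio, for equal library totals, excluded 1. Among all 14393 measured loci, 4.53% were called lower and 6.34% higher, which is the background for the counts given here. TMM scaling turned that split from 652 lower and 912 higher to 826 lower and 691 higher, and DESeq2 size factors to 782 and 725, and the 4 cluster calls stood under both. The members were chosen from this comparison, so nothing is read from their own share. In RNA of seedlings, fewer cells of a type and less RNA per cell cannot be told apart.

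The largest difference was that of PUP10, whose read ratio of mutant over WT was 0.230 (0.125 to 0.402), or 4.34-fold fewer reads. PUP7 had a ratio of 0.327 (0.243 to 0.434), 3.06-fold fewer, and AT4G18205 a ratio of 0.371 (0.291 to 0.470), 2.69-fold fewer. AT4G18220 lay just past the 2-fold limit, with a ratio of 0.475 (0.296 to 0.748), 2.10-fold fewer. PUP8, at 0.570, had an interval from 0.170 to 1.73, so at this depth a difference of the size of its neighbours and no difference were both possible. All 5 intervals overlap one another, which is not a test of equal ratios, and differences between members were not tested. On the log2 scale of RPKM + 1 the differences were -1.91 for PUP10, -1.57 for PUP7, -1.40 for AT4G18205, -1.02 for AT4G18220 and -0.59 for PUP8. In the distribution of all measured loci, 0.820% had a lower log2 ratio than PUP10, 1.76% than PUP7 and 2.36% than AT4G18205. The shares were 4.75% for AT4G18220 and 11.03% for PUP8. Members chosen from this comparison cannot be tested by their place in it, and these shares only describe them.

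**Figure D3:**
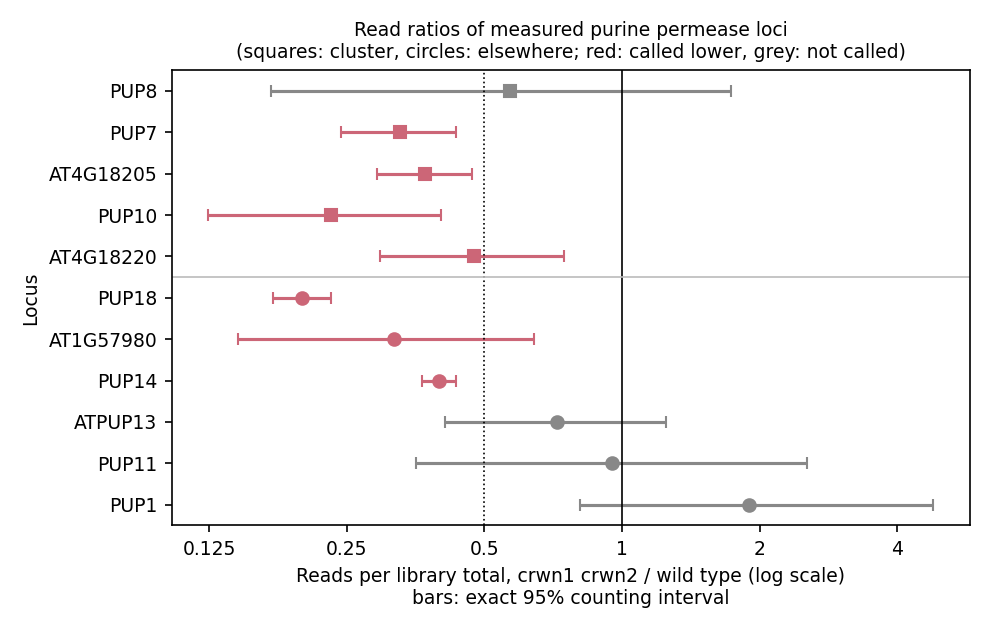
Read ratio of crwn1 crwn2 over WT for equal library totals, on a log scale, for the measured loci of the cluster (squares) and of the rest of the purine permease family (circles); bars are exact 95% counting intervals, red marks loci called lower and the dotted line a ratio of 0.5. Ratios of the 4 called cluster loci run from 0.230 to 0.475, and those of PUP18, AT1G57980 and PUP14 from 0.200 to 0.398.

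Summed over the 6 loci, the cluster had 579 reads in WT and 216 in the mutant library, or a CPM of 276 and 98.0. The ratio was 0.355 (0.302 to 0.415), 2.82-fold fewer. Leaving out any 1 of the 5 listed genes gave sums between 2.70-fold and 2.94-fold fewer. The division of the reads among the members was similar. AT4G18205 took 43.4% of cluster reads in WT (exact binomial 95% interval 39.3% to 47.5%) and 45.4% (38.6% to 52.3%) in the mutant library. PUP7 took 33.2% (29.3% to 37.2%) and 30.6% (24.5% to 37.2%). The shares of PUP10 were 11.4% and 7.41%, those of AT4G18220 10.4% and 13.9% and those of PUP8 1.73% and 2.78%, and the intervals of the 2 libraries overlap for each.

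**Figure D4:**
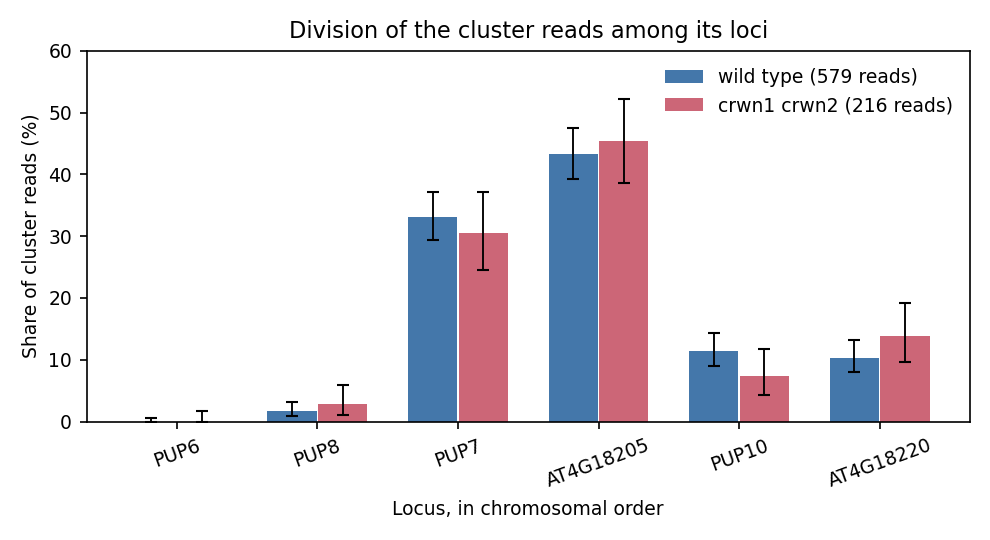
Share of the reads of the cluster that fell on each locus, in percent, WT in blue (579 reads) and crwn1 crwn2 in red (216 reads); bars start at 0 and lines are exact binomial 95% intervals. AT4G18205 and PUP7 hold the largest shares in both libraries, and the intervals of the 2 libraries overlap at every locus.

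The nearest listed genes on both sides were not called. On the right, AT4G18230, labelled as of unknown molecular function, had 45 and 47 reads (ratio 0.993, 0.645 to 1.53). On the left, AT4G18180 was not listed, and the nearest listed gene, WRKY28, a transcription factor gene, had 17 and 25 reads. Of the 10 reference loci on each side, 12 were measured, of which 1 was called lower and none higher, with a median log2 ratio of 0.21 against 0.12 for all measured loci. The called one was AT4G18250, a putative receptor kinase gene, with 10 reads in WT and 2 in the mutant library (ratio interval 0.0203 to 0.892). It was no longer measured with an RPKM floor of 5. PUP7 to AT4G18220 are 4 adjacent measured loci, all called lower. Runs of neighbouring measured loci all called lower were counted after the values were seen, and the cluster was itself chosen from those values. Of these runs 1 held 4 loci (this one), 5 held 3 and 46 held 2. Nothing is read from the place of the cluster among them. Runs of loci called higher reached 6.

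**Figure D5:**
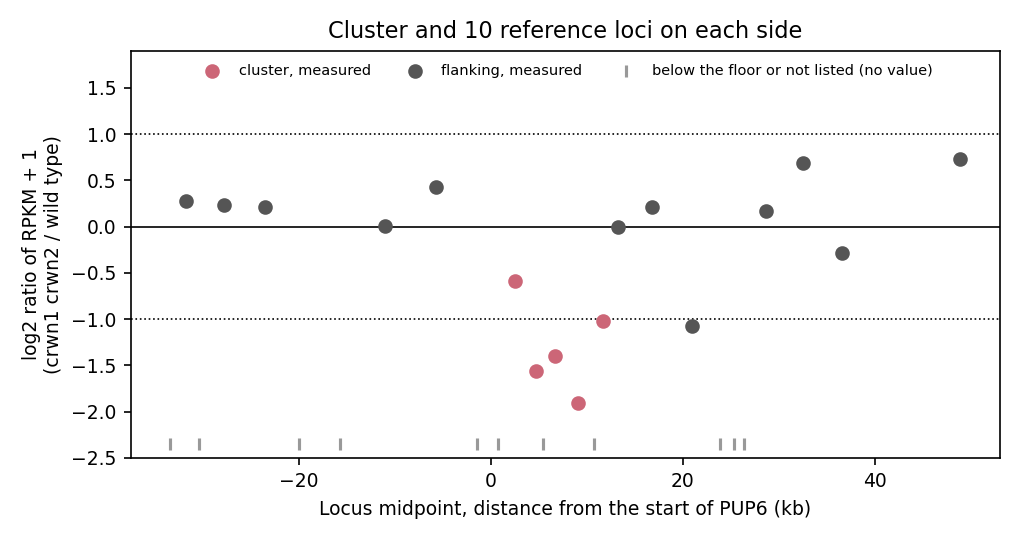
log2 ratio of RPKM + 1, crwn1 crwn2 over WT, against the distance in kb of each locus midpoint from the start of PUP6; red points are measured cluster loci, grey points measured loci among the 10 on each side, ticks at the bottom are loci with no value, and dotted lines mark 2-fold. Of the flanking loci AT4G18250, at -1.08, is the one beyond 2-fold.

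Overlapping annotation limits the assignment of reads, since the sources do not say whether the libraries kept strand. TAIR10.1 places AT4G18203 on the reverse strand over 814 bp of PUP7, and AT4G18215 on the reverse strand over 1061 bp of PUP10 and 1291 bp of AT4G18220. Neither antisense locus is named in the deposited tables. Reads from them cannot be told apart from those of the permease genes. AT4G18205 (called lower) and PUP8 (not called) overlap no other annotated gene. The part of antisense reads in the counts of PUP7, PUP10 and AT4G18220 was not tested. AT4G18220 also overlaps the reverse-strand gene AT4G18230 by 365 bp in TAIR10.1, although the deposited models of the 2 genes end short of each other.

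The upstream sequences of the 4 members called lower are shown because these genes differ in the same direction. Each run is the 150 bases before the annotated start on TAIR10.1, with the letters TTGAC or their reverse complement GTCAA, the core of the W-box that WRKY factors bind, in capitals:
PUP7, chr4:10071331-10071480, forward strand: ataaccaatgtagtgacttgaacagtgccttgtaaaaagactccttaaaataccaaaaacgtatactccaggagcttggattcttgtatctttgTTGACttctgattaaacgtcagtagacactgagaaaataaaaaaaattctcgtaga
AT4G18205, chr4:10073561-10073710, forward strand: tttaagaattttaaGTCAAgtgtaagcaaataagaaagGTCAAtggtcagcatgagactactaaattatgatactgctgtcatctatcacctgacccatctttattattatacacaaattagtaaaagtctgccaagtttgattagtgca
PUP10, chr4:10075377-10075526, forward strand: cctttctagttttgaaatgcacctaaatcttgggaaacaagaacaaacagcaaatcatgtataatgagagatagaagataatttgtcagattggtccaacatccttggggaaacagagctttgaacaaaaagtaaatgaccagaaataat
AT4G18220, chr4:10078488-10078637, forward strand: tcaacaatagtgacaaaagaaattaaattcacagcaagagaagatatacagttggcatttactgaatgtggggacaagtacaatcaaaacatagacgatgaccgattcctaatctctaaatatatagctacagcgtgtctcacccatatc
TTGAC on either strand was found in 3 of the 6 members' windows, 1 time for PUP7, 2 times for AT4G18205 and 3 times for PUP8, whose window reaches into PUP6. The same motif occurs in 30.7% of the 150-base windows of 27443 nuclear protein-coding genes. PUP10 and AT4G18220, both called lower, had none in this window. For the 5 listed members the TAIR10.1 start lies before that of the deposited model, for PUP10 at 10075527 against 10076079. Windows set from the deposited starts were not searched. The G-box CACGTG (4.8% of windows), the GCC-box GCCGCC (1.1%), CGCG (6.9%) and TATAAA (34.0%) were searched on both strands and were in none of the 6 windows.

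Outside the cluster, 3 of the 6 measured purine permeases, of 17 in all, were called lower and none higher. Their median log2 ratio was -0.88 against 0.12 for all measured loci. PUP14, the cytokinin importer, had 1876 reads in WT and 785 in the mutant library, a ratio of 0.398 (0.365 to 0.432). PUP18 had 1098 and 231 reads, a ratio of 0.200 (0.173 to 0.231), the lowest of the measured family. AT1G57980, which lies next to PUP18 on chromosome 1 and shares 79.5% of its residues, had 33 and 11 reads, a ratio of 0.317 (0.144 to 0.643). Of its 49-base windows, 2.29% also occurred elsewhere in the genome, and 19.53% matched a related permease with up to 2 mismatches. Whether some reads counted for AT1G57980 came from PUP18 was not tested.

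The 3 uncalled members had log2 ratios on both sides of 0. ATPUP13 had 33 and 25 reads (log2 ratio -0.43) and PUP11, which has 2 listed models, had 10 and 10 (-0.05). PUP1, a carrier of adenine and cytokinins, had 9 and 18 reads (0.76), with a ratio interval of 0.811 to 4.80. The remaining 11 loci had at most 3 reads in either library. PUP14 and PUP18 together held 81.5% of all purine permease reads in WT and 78.1% in the mutant library. The cluster held 15.9% of family reads in WT (14.7% to 17.1%) and 16.6% in the mutant library (14.6% to 18.7%), so its share was not distinguishable between them at this depth. Over the whole family of 23 loci, 3648 reads stood against 1301, a ratio of 0.339 (0.318 to 0.361).

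Lists of other genes that carry or metabolise purines and cytokinins held no gene called lower at the deposited scaling. Over all measured loci 4.53% were called lower and 6.34% higher, so no lower call in lists this short is near that share. Of 12 measured transporters of other nucleobase and nucleoside families none was called lower and 1 was called higher, AT2G34190, labelled a xanthine/uracil permease family protein, with 27 and 80 reads (log2 ratio 1.37). The median of this list was 0.57, and 10 of the 12 lay above 0. None of 12 measured genes of purine salvage and breakdown was called, with a median of 0.28, and the widest difference was that of the adenosine kinase gene ADK1 (79 and 168 reads, 0.99), which has 2 listed models. None of 11 measured genes of cytokinin synthesis, turnover and perception was called in either direction, with a median of 0.09, which became -0.04 after TMM scaling. There IPT3, an enzyme of cytokinin synthesis, had 26 and 54 reads (0.90). LOG7, a cytokinin-activating enzyme gene named after its value was seen, had 46 and 25 reads (-0.89) and was called lower after TMM scaling.

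Markers of tissue and handling also differed between the 2 libraries. Of 6 root hair markers 5 were called higher in crwn1 crwn2 and none lower, and their summed level was 7.64 CPM in WT and 98.0 CPM in crwn1 crwn2. EXPA18 and EXPA7, root hair expansin genes, were at 0 reads in WT and had 24 and 14 in the mutant library, PRP3 had 7 and 96, and LRX1 had 4 and 46. None of 5 measured leaf markers was called (summed level 3239 and 2970 CPM), and the widest difference was that of CAB3 (3439 and 2002 reads, -0.85). Of the 5, 2 lay below 0 and 3 above. RBCS1A, with 2 listed models, had at most 10.05% of a model covered. RBCS3B, with 3 listed models, had at most 8.84%, and CA1 had 21.81% covered in WT and 23.2% in the mutant library. The unique reads of these genes thus come from a small part of the models, and they are the 3 that lay above 0. Of 8 genes that respond quickly to touch and wounding 7 were called lower, with a median log2 ratio of -1.84 and summed levels of 6978 and 1686 CPM. WRKY40 had 1834 and 280 reads, TCH4 4694 and 932, DIC2 2426 and 563, and WRKY33 2762 and 715. The part of root hairs or of handling in the lower permease reads was not tested.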

How the data were processed

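Polyadenylated RNA of seedlings was sequenced in 1 library per genotype, grouped by the genotype label. Per the file headers, the deposited counts hold unique reads for each transcript model, and they add up to the totals named there (2.09 M and 2.20 M). The RPKM column of the authors could be recomputed from counts, lengths and totals. The deposited coverage column is the percent of model length covered by reads, per the file headers. The submitters' processing notes give TAIR10 as build, and neither aligner nor counting rule is named. Models without reads are left out of the tables.

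Reads and RPKM were summed per locus, and each of the 5 listed members had 1 listed model. Ratios were formed on RPKM + 1, with exact conditional binomial (Clopper-Pearson) 95% intervals of the read ratio (scipy 1.17.1). Such intervals treat reads as independent molecules, although copies made by PCR are not. Alternatives used TMM factors (edgeR 4.0.16; 0.954 and 1.05), size factors from DESeq2 1.42.0, CPM, other pseudocounts, floors, thresholds and flank widths.

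Gene names, exons and sequences came from RefSeq TAIR10.1. For 8189 of 8354 spliced models (98.0%), the deposited span less the TAIR10.1 introns gave the deposited length. AT4G18220 was not among them. Its deposited length is 1035 bases, whereas its second coding exon alone has 1142 bases in TAIR10.1. Its RPKM and coverage thus refer to a model that differs from the exons described here. Translated coding sequences were aligned globally with Biopython 1.88 (BLOSUM62). The purine permease list was extended by 1 locus, PUP9 (AT1G18220), whose name in the reference table matched.

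All 6 cluster loci, CRWN1 and CRWN2, every measured purine permease, the called members of other lists (at most 4, or the 1 with the widest difference) and called or nearest flanking loci were named. The members and lists were chosen with earlier results of these data known.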

Additional observations from a re-analysis of the deposited data

How the results depend on the processing

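With 1 library per genotype, none of the alternatives replaces a replicate. No paired analysis was possible because each genotype has 1 library. Cluster members called lower numbered 4 under TMM scaling, DESeq2 size factors, CPM, a 1.5-fold limit, no floor, a floor of RPKM 5 and a pseudocount of 0.1, and 0 at 4-fold. The ratio of summed cluster reads was 0.355, 0.323 after TMM scaling, 0.329 with size factors and 0.342 without AT4G18205. TMM scaling shifted all log2 ratios of reads by -0.14 and size factors by -0.11. At 4-fold, 1 purine permease outside the cluster, 4 touch genes, 0 flanking loci, 108 of all loci and 0 other transporters (higher) were called, and 129 of all loci were higher. At 1.5-fold, all loci gave 1194 lower and 1993 higher, purine salvage 2 lower and 2 higher, cytokinin genes 2 lower and 1 higher, leaf markers 1 lower, other transporters 4 higher and flanking loci 1 higher. TMM scaling gave 1 cytokinin gene lower, an RPKM floor of 5 gave 0 flanking loci lower, no floor gave 2 other transporters higher, and a pseudocount of 0.1 gave 1 purine salvage gene higher. Changes at 4-fold and 1.5-fold come from the limit itself, and the cause of the others was not tested. Flanks of 5 and 25 loci changed no count of flanking calls by over 1.5 times. At this depth PUP6 and PUP8 are not resolved.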
